A study of Homo sapiens with 5 samples.

Results

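The peaks described here lie at 8 genes of protein synthesis: the ribosomal protein genes RPLP0, RPL3, RPL13A, RPS2, RPS6 and RPSA, the elongation factor gene EEF1A1 and the ribosome assembly gene NPM1. The genes were chosen with earlier results of these data known, and their member peaks were then taken by position alone. A peak belongs to a gene when it touches the gene's span on human build hg19 or the 5 kb to either side. By this rule 282 of the 1150695 peaks in the 6 deposited lists were members. The lists come from chromatin immunoprecipitation and sequencing (ChIP-seq), which maps where a protein sits on DNA, in untreated cultures of U2932, an established human lymphoma cell line. One library each was made with antibody 1 and antibody 2, rabbit polyclonal non-commercial antibodies against PRDM11 (a protein of the PR domain family), and another with an RNA polymerase II antibody. The controls were 1 library of input chromatin and 1 precipitated with rabbit IgG, and every ChIP library was compared with both. All 5 libraries share the same unmodified cell line, and none comes from cells lacking PRDM11.

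Ribosomal proteins build the large and small subunits of the ribosome, and their genes are among the most heavily transcribed by RNA polymerase II in growing cells. The messenger RNAs of this family characteristically begin with a C followed by an unbroken run of pyrimidines (C and T in the DNA), the terminal oligopyrimidine tract, through which their translation follows growth signals. RNA polymerase II typically collects just after the start of a gene, and again past its 3′ end, where it slows before leaving the DNA. Processed pseudogenes of ribosomal protein genes are common in the genome, so that reads from their exons can match several places. The sources used here do not give how such reads were placed, and their part in the peaks was not tested.

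The start regions are shown first, because most antibody 1 peaks of these genes lay there. RefSeq promoters on build GRCh38.p14 were matched by symbol for 7 of the 8 genes, RPS2 being the one without an entry. Each line gives 120 bases before the listed start and 30 bases from it, and capitals mark the longest run of C and T within 20 bases of the start:

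RPLP0, chr12:120201082-120201231, strand -: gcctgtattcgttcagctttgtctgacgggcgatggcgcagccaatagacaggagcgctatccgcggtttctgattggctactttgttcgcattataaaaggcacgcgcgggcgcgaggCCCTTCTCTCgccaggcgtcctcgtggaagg
RPL3, chr22:39319594-39319743, strand -: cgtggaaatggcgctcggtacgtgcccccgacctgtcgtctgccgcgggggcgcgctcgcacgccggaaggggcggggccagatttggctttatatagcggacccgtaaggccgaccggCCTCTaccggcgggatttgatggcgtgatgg
RPL13A, chr19:49487488-49487637, strand +: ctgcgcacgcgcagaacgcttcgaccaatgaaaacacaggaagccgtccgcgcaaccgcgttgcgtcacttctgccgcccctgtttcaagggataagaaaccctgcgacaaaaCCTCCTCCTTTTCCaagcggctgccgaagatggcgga
RPS6, chr9:19380207-19380356, strand -: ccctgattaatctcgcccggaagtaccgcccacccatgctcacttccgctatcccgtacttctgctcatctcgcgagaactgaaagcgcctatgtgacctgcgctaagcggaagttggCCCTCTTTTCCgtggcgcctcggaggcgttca
RPSA, chr3:39406600-39406749, strand +: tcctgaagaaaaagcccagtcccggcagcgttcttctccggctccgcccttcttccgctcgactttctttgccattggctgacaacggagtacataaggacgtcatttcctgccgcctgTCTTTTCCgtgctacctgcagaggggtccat
EEF1A1, chr6:73521003-73521152, strand -: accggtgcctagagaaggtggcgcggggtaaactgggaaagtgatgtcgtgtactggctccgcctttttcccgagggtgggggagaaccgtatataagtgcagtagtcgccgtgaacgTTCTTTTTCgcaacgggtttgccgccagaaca
NPM1 (start 1), chr5:171386996-171387145, strand +: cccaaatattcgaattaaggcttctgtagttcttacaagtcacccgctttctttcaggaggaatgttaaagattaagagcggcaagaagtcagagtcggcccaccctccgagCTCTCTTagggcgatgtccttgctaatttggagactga
NPM1 (start 2), chr5:171387729-171387878, strand +: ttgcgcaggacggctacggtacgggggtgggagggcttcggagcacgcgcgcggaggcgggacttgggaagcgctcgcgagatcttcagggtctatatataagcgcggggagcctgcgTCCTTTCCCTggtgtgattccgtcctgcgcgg

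In the 7 matched genes, 7 of the 8 listed starts were a C within such a run of at least 5 bases. Among all 35116 promoters of the table, 7.66% (2688) had their start within such a run. The exception was the first listed start of NPM1, a G that followed the run CTCTCTT. NPM1's second start, 733 bases downstream of the first, lay in the run TCCTTTCCCT. The longest runs belonged to RPL13A (14 bases), RPS6 (11 bases) and, at 10 bases each, RPLP0 and the second start of NPM1, while RPL3 had the shortest (5 bases). Motifs searched on both strands of the 300-base windows were thinly spread. The GC box GGGCGG was found in 5 of the 8 windows (45.0% of all promoters), the ETS core CCGGAA in RPL3, RPL13A and RPS6 (17.2%), and the TATA box TATAAA in RPLP0 and RPL3 (11.5%). The E box CACGTG (7.26%) and the YY1 letters AAGATGG (5.84%) were found in RPL13A alone of these genes. The TATAAA match of RPL3 was on the opposite strand. Only the exact letters were searched, so variants such as TATATAAG, printed above for EEF1A1 and the second start of NPM1, were not counted. A match describes the letters of a window and is not a binding site.

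Positions of peaks below are on hg19 and distances are counted along transcription from the 5′ end of the span, called the start. The spans were 0 to 137 bases longer than the GRCh38 RefSeq genes for 6 of the 8. The RPL3 span was 766 bases longer and the NPM1 span 237 bases longer. Which end holds the extra bases was not determined, so distances at RPL3 could shift by up to that amount, and those at NPM1 by up to 733 bases to its inner start.

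RNA polymerase II had peaks at all 8 genes, and in numbers rarely met elsewhere. Against IgG it had 80 peaks in the 8 windows, from 7 at RPSA to 14 at RPL3. Tiles of 15 kb laid end to end over chromosomes 1 to 22 and X gave the background: 9.31% of them touched a polymerase peak and 0.827% touched 7 or more. Polymerase peaks covered 24.6% of the gene windows, against 0.591% of the tiled chromosomes. Within 1 kb of the start, all 8 genes had a polymerase peak, where 2.54% of 2-kb tiles did (8 genes and 3.77% of tiles against input). The gene windows measured 12801 bases (RPS2) to 34022 bases (NPM1), so the tiles are close to them in size except at NPM1. Of the member peaks 27 (33.8%) were 500 bp or wider, a width reached by 18.9% of the whole list. Each antibody has 1 library, so no spread between replicates can be given for any value below, and no test was made. The lists carry no read counts, so the depth behind a peak is unknown.

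Antibody 1 had 9 peaks against IgG, at 6 of the 8 genes, with RPL13A holding 3, EEF1A1 2 and RPL3, RPS6, RPSA and NPM1 1 each. RPLP0 and RPS2 had none. In the background 5.07% of 15-kb tiles touched an antibody 1 peak. Within 1 kb of the start, 6 of 8 genes had an antibody 1 peak, against 0.842% of 2-kb tiles. Tiles take in gene-free and silent stretches, so these backgrounds do not compare the 8 genes with other active genes. Antibody 2 had 44 peaks, from 2 at RPS6 to 10 at RPL3, and touched all 8 windows, where 80.4% of 15-kb tiles did so. It lay within 1 kb of the start at 6 genes, against 26.9% of 2-kb tiles. Of its 44 peaks, 35 had the narrowest width of that list, 123 bp, which was also the median width of the whole list. Without such peaks 3 genes kept an antibody 2 peak near the start.

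**Figure D1:**
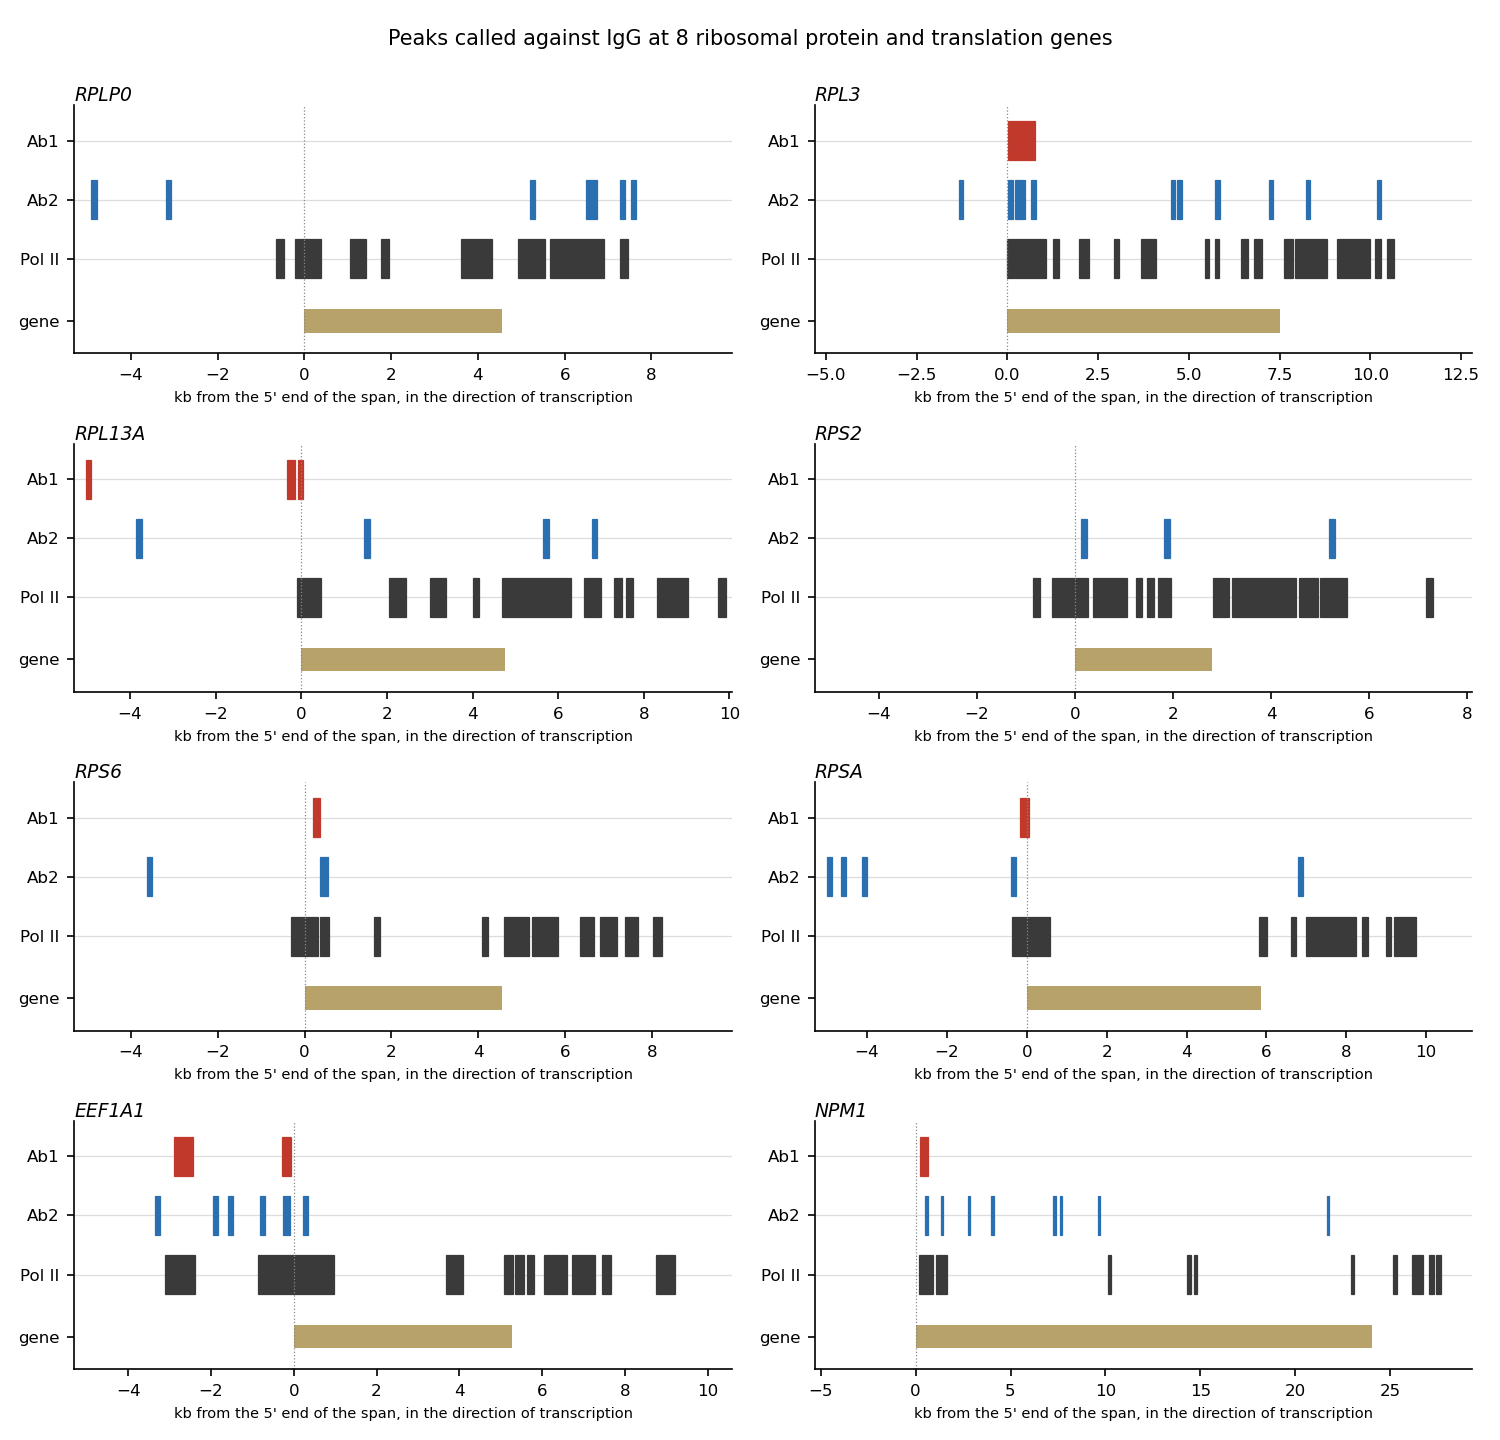
Peaks called against IgG at each gene, drawn to scale along the direction of transcription; the x axis gives kb from the 5′ end of the span, rows give antibody 1 (Ab1), antibody 2 (Ab2) and RNA polymerase II (Pol II), and the lowest bar is the gene span. Polymerase peaks lie at or close to the start and past the 3′ end of each of the 8 genes, whereas antibody 1 has 9 peaks in all, none of them past a 3′ end.

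Of the large subunit genes, RPLP0 encodes a protein of the ribosomal stalk, which recruits the translation factors. Its start lay in a polymerase peak of 616 bp (chr12:120638649-120639264), from 226 bases before to 389 bases after the start. No antibody 1 peak was called in its window against IgG, and the nearest antibody 2 peak with that control ended 3074 bases upstream. Against input, antibody 2 had a 123 bp peak at chr12:120638904-120639026, within that polymerase peak.

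RPL3 encodes a protein near the catalytic centre of the large subunit, and it had the widest antibody 1 peak of the 8 genes. That peak spanned 746 bp (chr22:39715625-39716370), from 24 to 769 bases into the span. The 766 extra bases of this span were not assigned to an end, so the peak may lie almost wholly upstream of the RefSeq start. Antibody 2 had 3 peaks inside or across the same stretch, of 123, 264 and 154 bp, the widest at chr22:39715915-39716178. All 4 lay within a polymerase peak of 1063 bp (chr22:39715335-39716397). Against input the antibody 1 peak was 762 bp wide and the 3 antibody 2 peaks had the same positions. RPL3 was thus the one gene of the 8 with several peaks of antibody 2 under 1 peak of antibody 1.

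RPL13A encodes a large subunit protein that can also leave the ribosome to repress chosen messenger RNAs. Antibody 1 had a 197 bp peak from 336 to 140 bases upstream of the start (chr19:49990475-49990671) and a 126 bp peak across the start (chr19:49990723-49990848). The polymerase peak of 583 bp (chr19:49990699-49991281) began 112 bases before the start, so it touched the second but not the first. Against input both antibody 1 peaks were replaced by a single one of 396 bp at chr19:49990458-49990853. The nearest antibody 2 peak began 1466 bases after the start, or 889 bases after it against input. The outermost antibody 1 peak, of 123 bp, straddled the edge of the window: it ended 4911 bases upstream, was missing against input and touched no peak of another library. Beyond the windows the nearest antibody 1 peaks called against IgG lay between 17864 bases (NPM1) and 67932 bases (RPL3) from a span.

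Among small subunit genes, RPS2, whose protein lies at the entry channel of the messenger RNA, had no antibody 1 peak against either control. Its start was covered by a polymerase peak of 714 bp (chr16:2014606-2015319), which held a 123 bp antibody 2 peak from 128 to 250 bases after the start (chr16:2014611-2014733). RPS6 encodes the protein phosphorylated by S6 kinases downstream of growth signals. Antibody 1 had a 154 bp peak from 194 to 347 bases after its start (chr9:19379905-19380058), and antibody 2 a 184 bp peak from 361 to 544 bases (chr9:19379708-19379891). The 2 peaks were neighbours without a shared base. Against input the antibody 1 peak was 272 bp wide (chr9:19379821-19380092) and did reach the antibody 2 peak. RPS6 also gained a 132 bp antibody 1 peak across the start against input.

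RPSA encodes a small subunit protein that is also known as the laminin receptor precursor. Its antibody 1 peak of 248 bp (chr3:39448001-39448248) crossed the start, from 179 bases before to 68 bases after it, within a polymerase peak of 937 bp. No antibody 1 peak was called there against input. The antibody 2 peak nearest the start ended 280 bases upstream (chr3:39447778-39447900) and did not reach the antibody 1 peak. RPSA was the only one of the 6 genes to lose its antibody 1 peak with the change of control.

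EEF1A1 encodes the factor that brings aminoacyl-tRNA to the ribosome, and it had the widest polymerase peak of the 8 genes against IgG. Against input its peak of 1852 bp was second to one of 2151 bp within the RPL13A span. The peak against IgG, of 1815 bp (chr6:74229793-74231607) reached from 852 bases before to 962 bases after the start. Antibody 1 had a 225 bp peak from 285 to 61 bases upstream (chr6:74230816-74231040). A 165 bp antibody 2 peak lay wholly within it, from 262 to 98 bases upstream (chr6:74230853-74231017), and 2 further antibody 2 peaks of 123 bp flanked it within the polymerase peak. EEF1A1 also had a second site: an antibody 1 peak of 460 bp from 2895 to 2436 bases upstream (chr6:74233191-74233650) lay within a polymerase peak of 717 bp (chr6:74233139-74233855), with no antibody 2 peak on it. Against input, antibody 1 had a 422 bp peak there and RNA polymerase II one of 671 bp. On GRCh38 the gene listed within 5 kb upstream of EEF1A1 is its antisense RNA gene EEF1A1-AS1; which gene the second site belongs to was not determined.

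NPM1 encodes nucleophosmin, a nucleolar protein that helps to assemble ribosomes. Antibody 1 had a 397 bp peak from 244 to 640 bases after the first base of the span (chr5:170814364-170814760), within a polymerase peak of 736 bp that ran from 190 to 925 bases. RefSeq places the second start, the one inside the pyrimidine run, 733 bases from the first. A 123 bp antibody 2 peak at chr5:170814636-170814758 lay at the downstream end of the antibody 1 peak, and no antibody 2 peak was called there against input. A further 7 antibody 2 peaks of 123 to 128 bp were strewn over the long gene body.

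**Figure D2:**
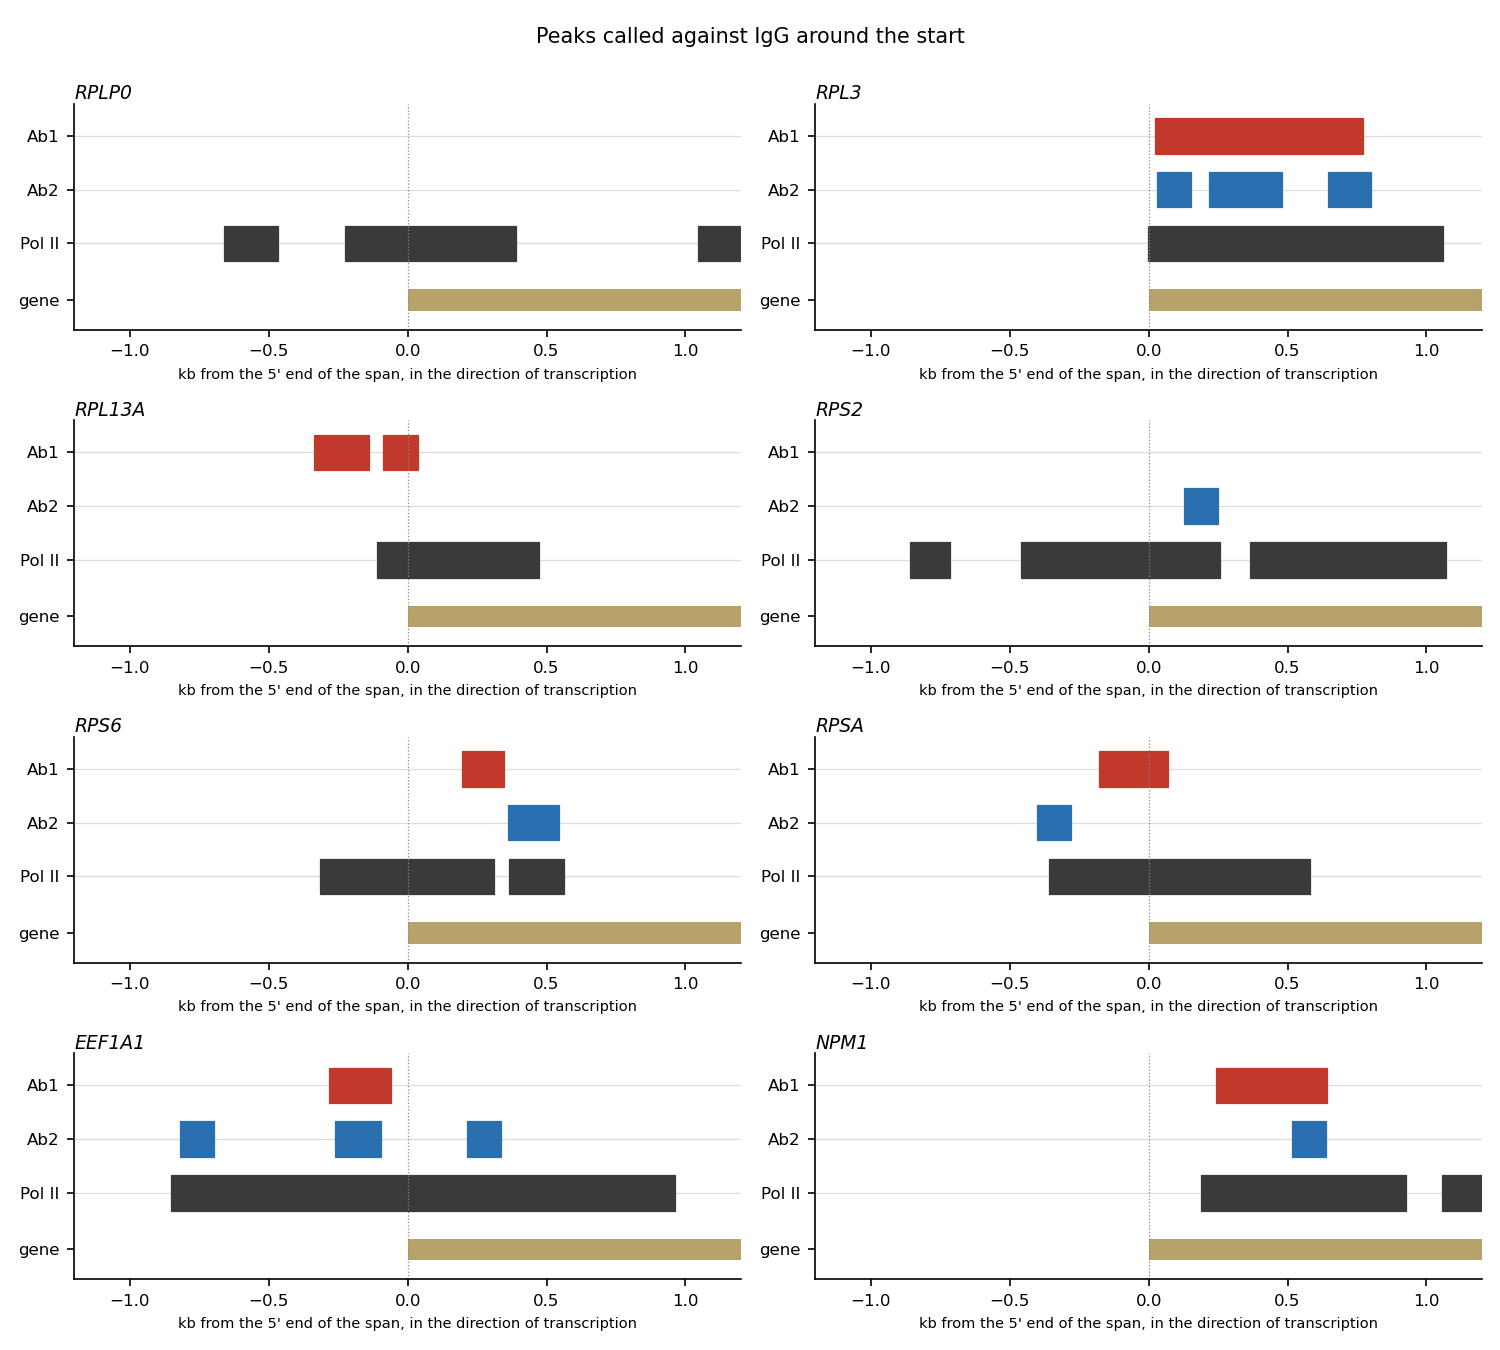
Peaks called against IgG close to the start of each gene; the x axis gives kb from the 5′ end of the span, and rows are as in the map of whole windows. A polymerase peak covers the start at 7 genes and begins 190 bases after it at NPM1, and peaks of both PRDM11 antibodies share bases at RPL3, EEF1A1 and NPM1.

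Side by side, antibody 1 and antibody 2 peaks met at RPL3, EEF1A1 and NPM1, lay apart at RPS6 and RPSA, and at RPL13A only antibody 1 was near the start. The lists share their IgG control, so a shared position is no independent evidence of a shared site. Of the 9 antibody 1 peaks, 3 touched an antibody 2 peak, whichever control antibody 2 was called against, although RPS6 took the place of NPM1 with input, while 47.2% of the whole antibody 1 list did so against IgG and 48.2% against input. The exact 95% interval of 3 in 9, which covers counting error only, ran from 7.49% to 70.1%. A polymerase peak was touched by 7 of the 9 (77.8%, 39.99% to 97.2%), against 55.2% of the list, and by 8 of 9 when polymerase was called against input, against 57.8%. Both of the intervals given here include the share of the list. With antibody 1 called against input, 9 of 12 peaks touched a polymerase peak called against IgG (42.8% to 94.5%), against 19.1% of that list, and 11 of 12 touched one called against input (61.5% to 99.8%), against 44.9%. These intervals lie above the share of the list, but they treat peaks of the same gene as independent. No conclusion is drawn from them. For antibody 2, 21 of 44 member peaks (47.7%, 32.5% to 63.3%) touched a polymerase peak, against 3.20% of its list, and 22 of 44 did so with polymerase called against input, against 3.86%. Polymerase peaks cover far more of these windows than of the chromosomes, as given above, and their part in all of these shares was not tested.

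Polymerase peaks were not confined to the starts. Past the 3′ end, peaks covered more of the 5 kb flank than of the gene span or of the 5 kb upstream in each of the 8 genes. The downstream share was 61.1% at RPL13A, 54.7% at RPS2, 48.9% at RPL3, 48% at RPSA, 47.8% at RPS6, 43.6% at EEF1A1, 41.0% at RPLP0 and 25.7% at NPM1. The span shares ranged from 8.28% at NPM1 to 53.2% at RPS2, so that span and downstream flank were closest at RPS2 and furthest apart at RPSA (10.6% against 48%). Upstream, peaks covered 0% at NPM1 and up to 31.4% at EEF1A1. Over the 8 genes together the shares were 8.45% upstream, 20.8% in the spans and 46.4% downstream. Against input the order of the sums was the same (11.1%, 27.4% and 49.2%), but the span exceeded the downstream flank at RPLP0 (50.3% against 44.2%), RPL13A (75.1% against 66.5%) and RPS2 (53.1% against 48.1%).

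**Figure D3:**
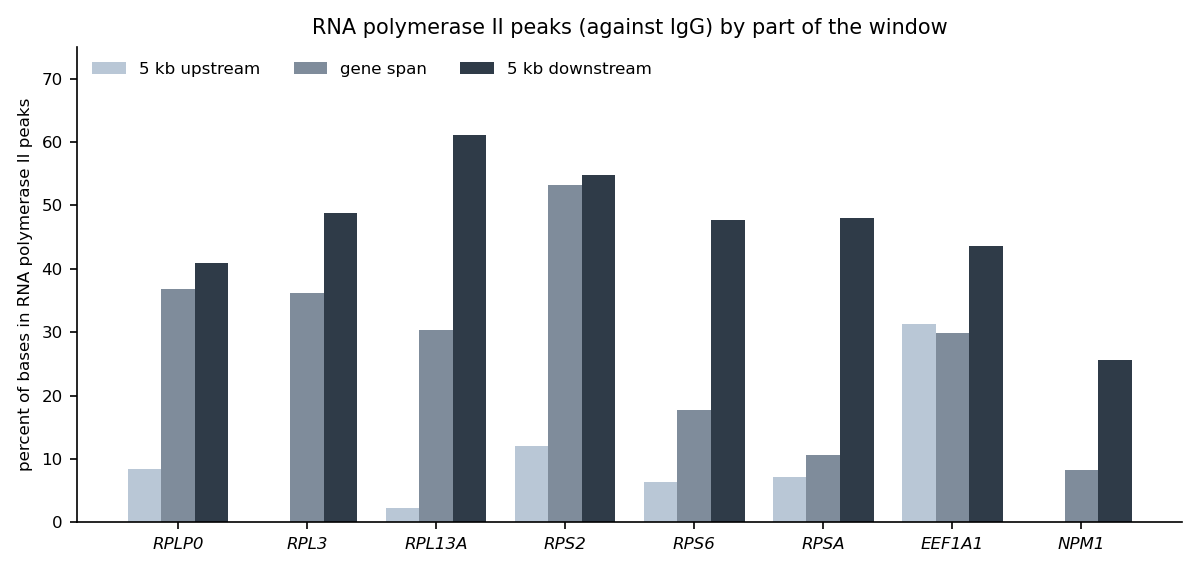
Percent of bases that lie in RNA polymerase II peaks called against IgG (y axis) in the 5 kb upstream, the gene span and the 5 kb downstream of each gene (x axis). The downstream bar is the tallest at each of the 8 genes, from 25.7% at NPM1 to 61.1% at RPL13A.

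Neighbouring genes lie in some of these flanks. On GRCh38, RefSeq lists NDUFB10 within 5 kb downstream of RPS2, DENND4C downstream of RPS6 and GCN1 downstream of RPLP0. It lists no gene within 5 kb downstream of RPL3, RPSA, EEF1A1 or NPM1, and the downstream shares of these 4 genes were 48.9%, 48%, 43.6% and 25.7%. Polymerase of a gene and of its neighbour cannot be told apart in these lists. With IgG as the control, the last polymerase peak of the window ended 3147 bases past the 3′ end at RPL3, 3892 at RPSA, 3924 at EEF1A1 and 3632 at NPM1. With input it ended 4461 bases past the 3′ end at RPL3, 4167 at RPSA, 3910 at EEF1A1 and 4985 at NPM1. From 5 to 10 kb downstream of these 4 genes there was no polymerase peak at RPL3 or RPSA with either control, while EEF1A1 had 1 and NPM1 had 3 against IgG, and 4 each against input.

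Against IgG, the widest polymerase peak lay past or across the 3′ end in 4 genes: RPL13A (1600 bp, chr19:49995501-49997100), RPS2 (1302 bp, chr16:2010354-2011655), RPSA (1256 bp, chr3:39455172-39456427) and RPLP0 (1243 bp, chr12:120632133-120633375). In EEF1A1, RPL3, NPM1 and RPS6 it was the peak at or nearest the start, of 1815, 1063, 736 and 626 bp. The RPSA peak began 1139 bases past the end of the gene, and the RPLP0 peak 1114 bases past it. Against input the widest peak changed place in 3 genes. It lay downstream at RPL3 (1202 bp), within the span at RPL13A (2151 bp) and, at NPM1, further into the span, beginning 1020 bases after the start (625 bp).

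Of the 9 antibody 1 peaks, 6 lay on the polymerase peaks at the starts, 1 on the second EEF1A1 site, and the other 2, both at RPL13A, on none. Of the 8 polymerase peaks at or nearest the start, 6 held an antibody 1 peak (exact 95% interval 34.9% to 96.8%). The background was 37.1% of all polymerase peaks of 583 to 1815 bp, the same range of widths. The interval includes this share, but it treats the 8 peaks as independent, so no conclusion is drawn from it. Of the 15 polymerase peaks of 500 bp or wider past or across a 3′ end, 0 held an antibody 1 peak, with an upper limit of 21.8%, against 36.0% of all polymerase peaks of 539 to 1600 bp. With antibody 1 called against input, 5 of the 8 at the starts did (45.4% of all of those widths) and 2 of the 15 past the ends (44.3%). Antibody 2 peaks lay in 5 of the 8 start peaks (52.8% of all of those widths) and in 5 of the 15 past the ends (51.3%). Called against input, they lay in 5 of the 8 (55.3%) and in 6 of the 15 (53.8%). These peaks come from 8 genes and are not independent, and the list background mixes starts, gene bodies and other sites, so no test was made of either difference.

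The control changed both single sites and totals. Over the whole lists, antibody 1 had 13499 peaks against IgG and 54038 against input, antibody 2 had 465837 and 486796, and polymerase 50161 and 80364. Against input, antibody 1 had 12 member peaks in place of 9 at 6 genes (12.2% of 15-kb tiles), antibody 2 had 48 in place of 44 at 8 genes (80.4%) and polymerase 89 in place of 80 at 8 genes (12.0%). Of the peaks called against IgG, 7 of 9, 41 of 44 and 77 of 80 touched a peak of the same library called against input. In the other direction, 6 of 12, 41 of 48 and 74 of 89 peaks called against input touched one called against IgG. The same share over the whole lists was not computed, so these counts are not read as particular to the 8 genes. The antibody 1 peak at RPSA and the outer one at RPL13A were not found again. Antibody 1 peaks found with input only included a 123 bp peak in the wide downstream polymerase peak of RPLP0 (chr12:120632427-120632549), which touched a 236 bp antibody 2 peak. Near the start, antibody 1 was found at 5 genes against input (2.74% of 2-kb tiles) and antibody 2 at 7 (27.4%), while polymerase was found at 8 with either control. Counts over 1 Mb centred on each gene ranged from 4 (NPM1) to 72 (RPL13A) antibody 1 peaks against input and from 3 to 31 against IgG, so the number of peaks in the wider surroundings differed between genes too.

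**Figure D4:**
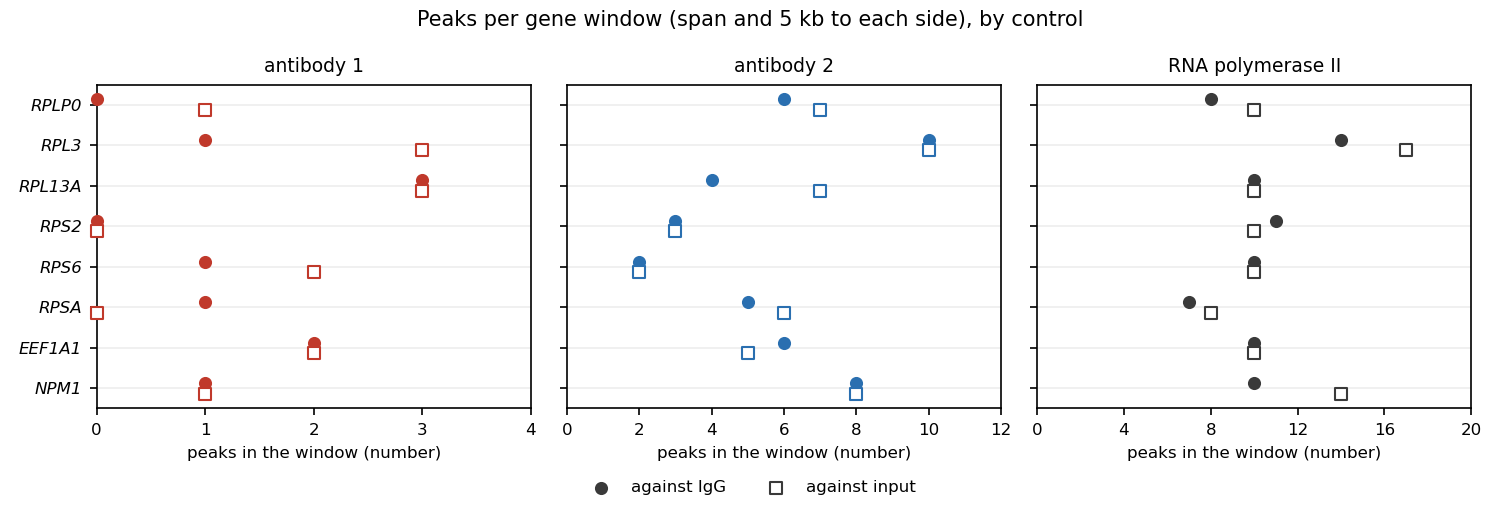
Number of peaks (x axis) in the window of each gene (y axis) for antibody 1, antibody 2 and RNA polymerase II, called against IgG (filled circles) and against input (open squares); each point is 1 list of 1 library. RPS2 has 0 antibody 1 peaks with either control, RPSA 1 against IgG and 0 against input, and polymerase counts lie between 7 and 17.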

How the data were processed

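Peak lists of 3 ChIP libraries (antibody 1, antibody 2, RNA polymerase II), each called against IgG and against input, were used as deposited. Among tools, MACS2 2.0.9, SAMtools and Bowtie 0.12.7 stand in the submitters' processing notes, with build hg19 and without order or settings. A q threshold of 0.1 and the control stand only in the names of the lists. The deposited lists give chromosome, start and end of each peak, per the files themselves, with no score, fold, count or p-value; the sources used here do not give how duplicate or multiply matching reads were treated. Starts, counted from 0 in the lists, are printed counted from 1.

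Gene spans were those of the rule, with the strand checked against RefSeq promoters for 7 genes; that of RPS2 is textbook knowledge. All 8 genes were described, with every antibody 1 peak called against IgG and the polymerase peak at or nearest each start. Other polymerase peaks, antibody 2 peaks and peaks called against input are given in part. Peaks overlapped when they shared 1 bp. Backgrounds came from 15-kb and 2-kb tiles on chromosomes 1 to 22 and X, and from whole lists. RefSeq tables (GRCh38.p14) gave names, neighbours and promoter letters only. Not every neighbour is reported here. Other ribosomal genes were not analysed here, for lack of an hg19 annotation. Alternatives were the control, window, start distance, overlap, narrowest peaks and, added after seeing the data, the inner RefSeq start. Members and gene lists were chosen with earlier results of these data known. Computations used Python 3.11.15, NumPy 2.4.6, pandas 2.3.3, SciPy 1.17.1 and matplotlib 3.10.9; the overlap code was tested on simulated data and against bedtools 2.31.1.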

Additional observations from a re-analysis of the deposited data

How the results depend on the processing

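Of 87 alternative values for 15 counts and coverages, 75 stayed within 1.5 times the reported value. Counts of genes cannot exceed 8, and those of polymerase were 8 under every alternative, so the 75 does not measure robustness. In the gene spans alone antibody 1 had 5 member peaks, antibody 2 had 20 and RNA polymerase II had 38. With 1 kb on each side there were 27 and 51 for antibody 2 and RNA polymerase II. With 10 kb on each side antibody 1 peaks covered 1.22% of the windows in place of 1.90%. These windows are smaller or larger by construction. Without peaks of the narrowest width, antibody 2 had 9 member peaks, which covered 1.12% of the windows, and lay within 1 kb of the start at 3 genes. Without such peaks in both lists, 7 antibody 2 peaks touched RNA polymerase II. With both lists called against input, 5 of 12 antibody 1 peaks touched antibody 2 (41.7%, against 34.8% of the whole list) and 11 of 12 touched RNA polymerase II (91.7%, against 44.9%); the cause was not tested. Moving the start to the inner RefSeq start left 6, 6 and 8 genes with a peak within 1 kb for antibody 1, antibody 2 and RNA polymerase II. No stricter score threshold could be tried, since the lists hold no score. Without read counts, how many narrow peaks rest on few reads is unknown, and with 1 library per antibody no library could be left out. No paired analysis was possible because each antibody has 1 library and no result comes from a test.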
